A study of Homo sapiens with 6 samples.

Results

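Genes of sodium entry into neurons, 9 of the 18417 gene symbols measured, were followed in neural stem cells given the compound X5050 or its solvent. They are the voltage-gated sodium channel alpha subunits SCN1A, SCN2A, SCN3A, SCN8A and SCN9A, the beta subunits SCN2B and SCN3B, and the sodium leak channel NALCN with its partner UNC80. A probe set (the group of array probes summarised to 1 value) was a member if its annotation held one of these symbols and no other. That gave 11 probe sets, 2 each for SCN8A and UNC80, and the one with the highest mean over all arrays stood for the gene. The cells were neural stem cells at passage 14, derived from the established human embryonic stem cell line SA-01. They were treated from 5 h after plating, for 24 h, with DMSO at 0.1% or with X5050 at 100 µM, and each group had 3 arrays (replicates 1 to 3). Each replicate number was read as 1 culture that supplied a DMSO and an X5050 sample. All samples thus share 1 cell line and 1 time, and X5050 was given at 1 dose. X5050 is named in the title of the series as inhibiting REST, and the comparison asks whether these genes differed between it and DMSO.

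Voltage-gated sodium channels carry the rising phase of the action potential: a large alpha subunit forms the pore, and small beta subunits tune its gating and its place in the membrane. NALCN, with UNC80 and UNC79, forms a channel that leaks sodium at rest and so sets how easily a neuron fires. REST is a repressor that binds RE1 elements and keeps neuronal genes low in cells that are not neurons, and sodium channel genes were among the first targets described for it.

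Signals are log2 values per probe set, and changes are X5050 minus DMSO on that scale. None of the 9 genes passed the test, while 8 of them lay above 0 (52.7% of all tested probe sets did), with a median change of 0.17 against 0.0092 over all tested probe sets. SCN3A (0.43), UNC80 (0.40) and SCN9A (0.32) had the largest changes and SCN1A (-0.055) the lowest. By limma's test with Benjamini-Hochberg adjustment over 19460 probe sets the adjusted p of the 9 genes ran from 0.389 to 0.984, and 0% of all probe sets passed the threshold of 0.05. With the culture as a replicate block the 9 ran from 0.124 to 0.975. The second UNC80 probe set rose in that paired fit (0.75, adjusted p = 0.0481), which called 0.190% of all tested probe sets higher. That call was lost without culture 2 or 3 and under 2 other scalings, with the values given beside that probe set. Before adjustment, 1 of the 9 genes had p under 0.05 and was higher (4.50% of all tested probe sets were), and 3 of the 9, SCN2A, SCN3A and UNC80, did in the paired fit (7.06% of all). X5050 was higher in all 3 cultures for 4 of the 9, SCN2A, SCN3A, NALCN and UNC80 (18.0% of all tested probe sets), and lower in all 3 for 0 of them (17.5% of all). Of the 9 genes, 7 span at least 100 kb in the RefSeq annotation, a length chosen after the changes were seen. Over all measured genes of that span 65.6% lay above 0, 32.5% were higher in all 3 cultures and the median change was 0.056. For the shorter ones these were 50.1%, 15.4% and 0.00040. Of the 7 members of that span 85.7% lay above 0 and 57.1% were higher in all 3 cultures. The part of gene span in the members' changes was not tested.

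**Figure D1:**
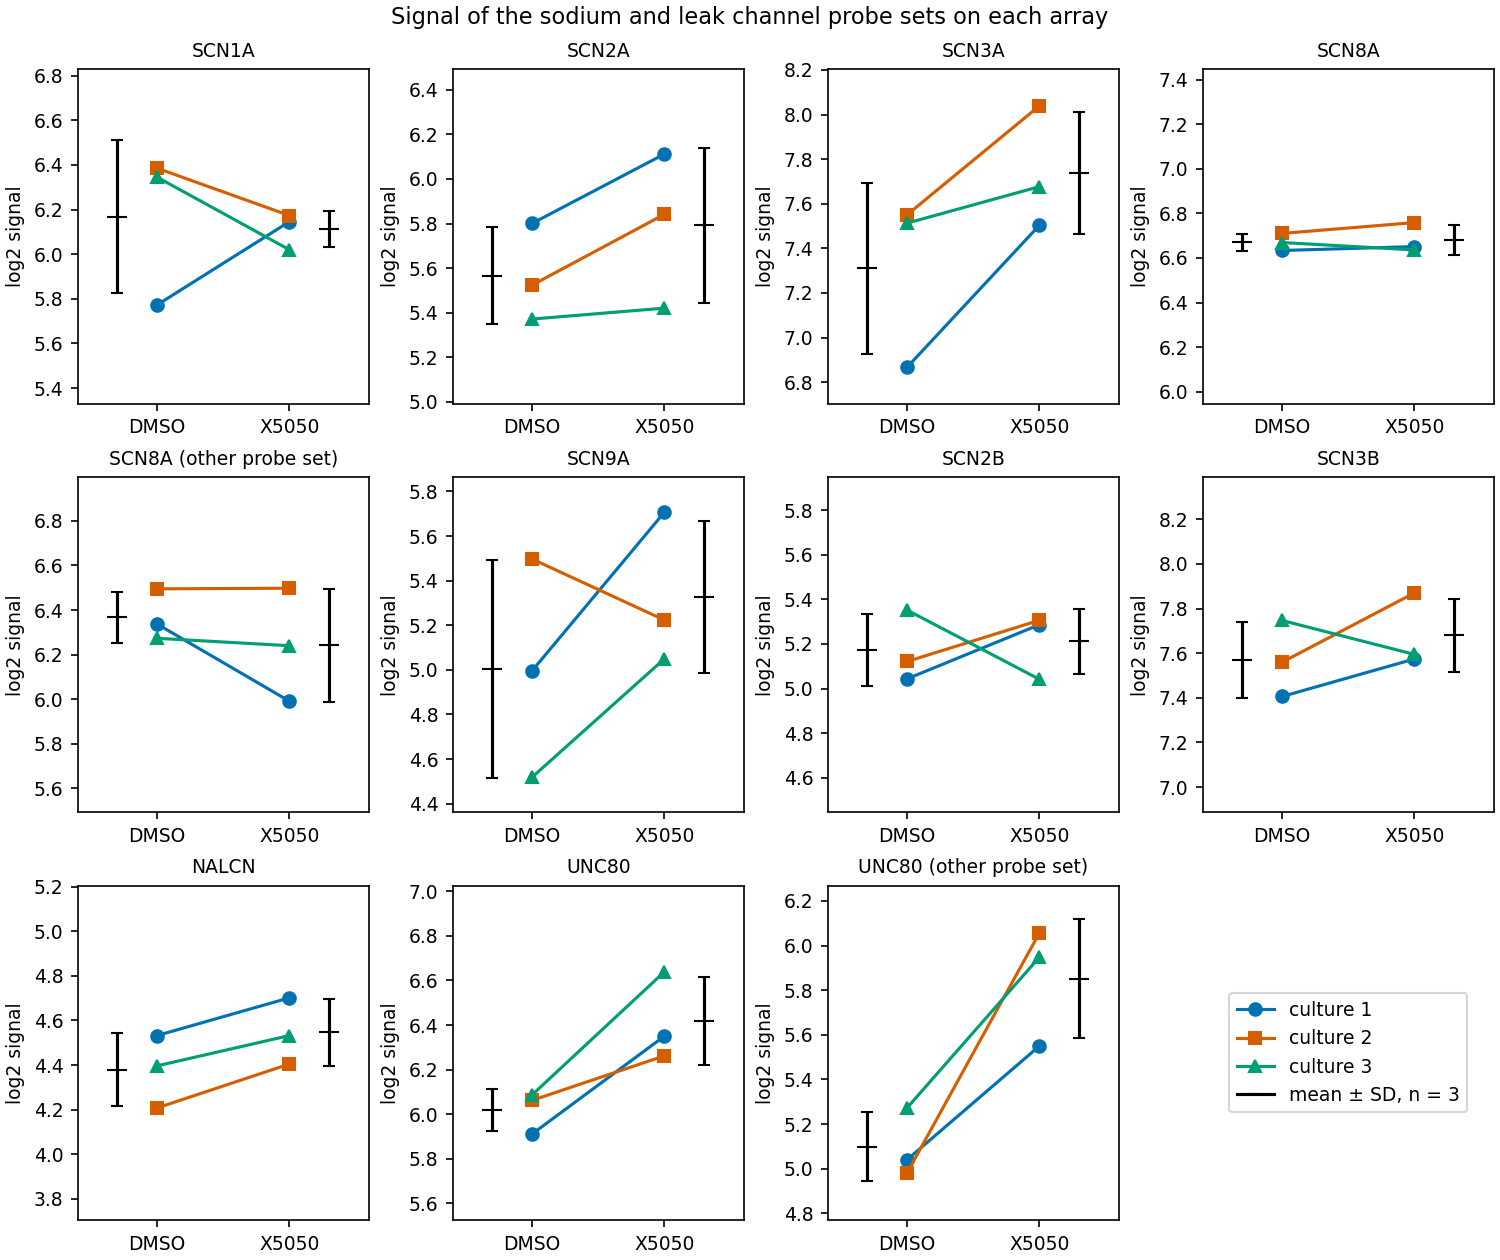
Log2 signal of the 11 probe sets on each array. Lines join the DMSO and X5050 arrays of 1 culture, and the bars give the mean ± SD (n = 3). All panels span 1.5 log2 units, and the X5050 points lie wholly above the DMSO points in the 2 UNC80 panels alone.

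Among the alpha subunits, SCN3A, which encodes the channel Nav1.3 that is prominent in the embryonic brain, had the largest change. Its probe set 8056376 read 6.87, 7.55 and 7.51 with DMSO in cultures 1, 2 and 3 and 7.50, 8.04 and 7.68 with X5050. Every culture was higher with X5050, by 0.64, 0.49 and 0.16, but the groups overlapped, since the X5050 array of culture 1 stood just below the DMSO arrays of the other cultures. The mean change was 0.43 (1.35-fold, SE 0.21, 95% interval -0.059 to 0.92, limma adjusted p = 0.590 over all probe sets). In the paired fit the interval was 0.18 to 0.68 and the adjusted p 0.131.

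SCN2A, which encodes Nav1.2, the channel of unmyelinated axons and of the axon initial segment early in life, read 5.80, 5.52 and 5.37 with DMSO (probe set 8046020). With X5050 it read 6.11, 5.84 and 5.42. The cultures kept their order in both treatments and the groups overlapped, with changes of 0.31, 0.32 and 0.049. The mean change was 0.23 (1.17-fold, SE 0.19, 95% interval -0.21 to 0.66, limma adjusted p = 0.803). In the paired fit the SE was 0.096, the interval 0.0051 to 0.45 and the limma adjusted p 0.331. SCN2A was below the median of the tested probe sets on all 6 arrays.

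SCN9A, which encodes Nav1.7, the channel of pain-sensing and sympathetic neurons, varied most between DMSO cultures, at 5.00, 5.50 and 4.52 (SD 0.49, probe set 8056491). It was below the lower quartile of the tested probe sets on 2 of the 6 arrays and below their median on all 6. The X5050 arrays read 5.71, 5.22 and 5.05. Cultures 1 and 3 were higher with X5050 (0.71 and 0.53) and culture 2 was lower (-0.27), and the groups overlapped. Its mean change of 0.32 (1.25-fold, SE 0.26) had a 95% interval from -0.28 to 0.93, and from -0.072 to 0.72 in the paired fit. In that fit the change was 0.62 without culture 2 and 0.13 without culture 1.

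SCN1A, which encodes Nav1.1 of inhibitory neurons, had no common direction: it read 5.77, 6.39 and 6.35 with DMSO and 6.15, 6.17 and 6.02 with X5050 (probe set 8056457). Culture 1 was higher by 0.37, and cultures 2 and 3 were lower, at -0.21 and -0.33. The mean change was -0.055 (SE 0.16, 95% interval -0.44 to 0.33, and -0.37 to 0.26 in the paired fit).

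SCN8A, which encodes Nav1.6 of mature axon initial segments and nodes of Ranvier, varied least. Probe set 7955502 read 6.63, 6.71 and 6.67 with DMSO and 6.65, 6.76 and 6.64 with X5050, a change of 0.011 (SE 0.081, 95% interval -0.18 to 0.20). Its residual SD between arrays was at the 5.82 percentile of all tested probe sets. The other SCN8A probe set, 7955533, read 6.34, 6.49 and 6.27 with DMSO and 5.99, 6.50 and 6.24 with X5050, so its change of -0.13 (SE 0.14) came from culture 1 (-0.35), with 0.0028 and -0.033 in the others. The intervals of both SCN8A probe sets include 0 in either fit, and the direction of this gene depended on the probe set.

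In the RefSeq annotation SCN3A and SCN2A lie next to each other on chromosome 2, and SCN1A, SCN9A and the glial channel gene SCN7A follow in a row a few genes further on. These 5 neighbours did not share a direction: the mean changes were 0.43 and 0.23 for the first pair and -0.055, 0.32 and -0.013 for the others. Their coding sequences are related, and whether probes of one also read RNA of another was not tested.

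The beta subunits changed by less than the spread between arrays. SCN3B, which encodes the noncovalently bound beta-3 chain and is expressed in the developing brain, read 7.41, 7.56 and 7.75 with DMSO (probe set 7952350). Its X5050 arrays read 7.57, 7.87 and 7.59, a mean change of 0.11 (SE 0.12, 95% interval -0.18 to 0.40). Cultures 1 and 2 were higher, by 0.17 and 0.31, and culture 3 was lower, at -0.15. SCN2B, which encodes the disulfide-linked beta-2 chain, read 5.04, 5.12 and 5.35 with DMSO and 5.29, 5.31 and 5.04 with X5050 (probe set 7952011). It showed the same split, with 0.24 and 0.18 in cultures 1 and 2 and -0.31 in culture 3, for a mean of 0.039 (SE 0.12, 95% interval -0.23 to 0.31). The groups overlapped for both, and the paired intervals also include 0 (SCN3B -0.14 to 0.36, SCN2B -0.24 to 0.32). SCN2B was below the median of the tested probe sets on all 6 arrays.

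Both leak channel genes were higher with X5050 in all 3 cultures. NALCN, the pore of the channel, read 4.53, 4.21 and 4.40 with DMSO and 4.70, 4.40 and 4.53 with X5050 (probe set 7972601). It was below the lower quartile of the tested probe sets on all 6 arrays, a range in which array signals understate a log2 change. The cultures changed by 0.17, 0.20 and 0.14, the narrowest range among the members that were higher in all 3. The mean of 0.17 (1.12-fold, SE 0.12) had an interval of -0.11 to 0.44 without the block and -0.031 to 0.36 with it, and the groups overlapped.

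UNC80, the large scaffold protein that links the pore to UNC79 and to signalling enzymes, was the member whose groups did not overlap. Probe set 8047952 read 5.91, 6.06 and 6.09 with DMSO and 6.35, 6.26 and 6.64 with X5050, so the lowest X5050 array stood above the highest DMSO array. Of the 9 genes 1 had all X5050 arrays above all DMSO arrays, and 7.51% of all tested probe sets did. The changes of 0.44, 0.20 and 0.55 gave a mean of 0.40 (1.32-fold, SE 0.12, 95% interval 0.12 to 0.67, limma adjusted p = 0.389, and 0.124 in the paired fit). With 1 array left out it ranged from 0.29 to 0.47.

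The second UNC80 probe set, 8047965, had a larger change and was below the median of the tested probe sets on all 6 arrays. It read 5.04, 4.98 and 5.27 with DMSO and 5.55, 6.06 and 5.95 with X5050, again with no overlap. The cultures changed by 0.51, 1.08 and 0.68, with a mean of 0.75 (1.69-fold, SE 0.15, 95% interval 0.41 to 1.10). By limma the adjusted p was 0.286 without the block and 0.0481 with it. The call was lost in the paired fit without culture 2 (0.59, adjusted p = 0.0732) and without culture 3 (0.79, adjusted p = 0.236). It was also lost after quantile normalization (adjusted p = 0.0552) and with arrays centred on their medians (0.0510), and it stood without culture 1 (0.88, adjusted p = 0.00828). Set beside the first probe set (0.44, 0.20 and 0.55), the changes were close in cultures 1 and 3 and far apart in culture 2. Where each lies along the gene is not given in the sources used here.

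**Figure D2:**
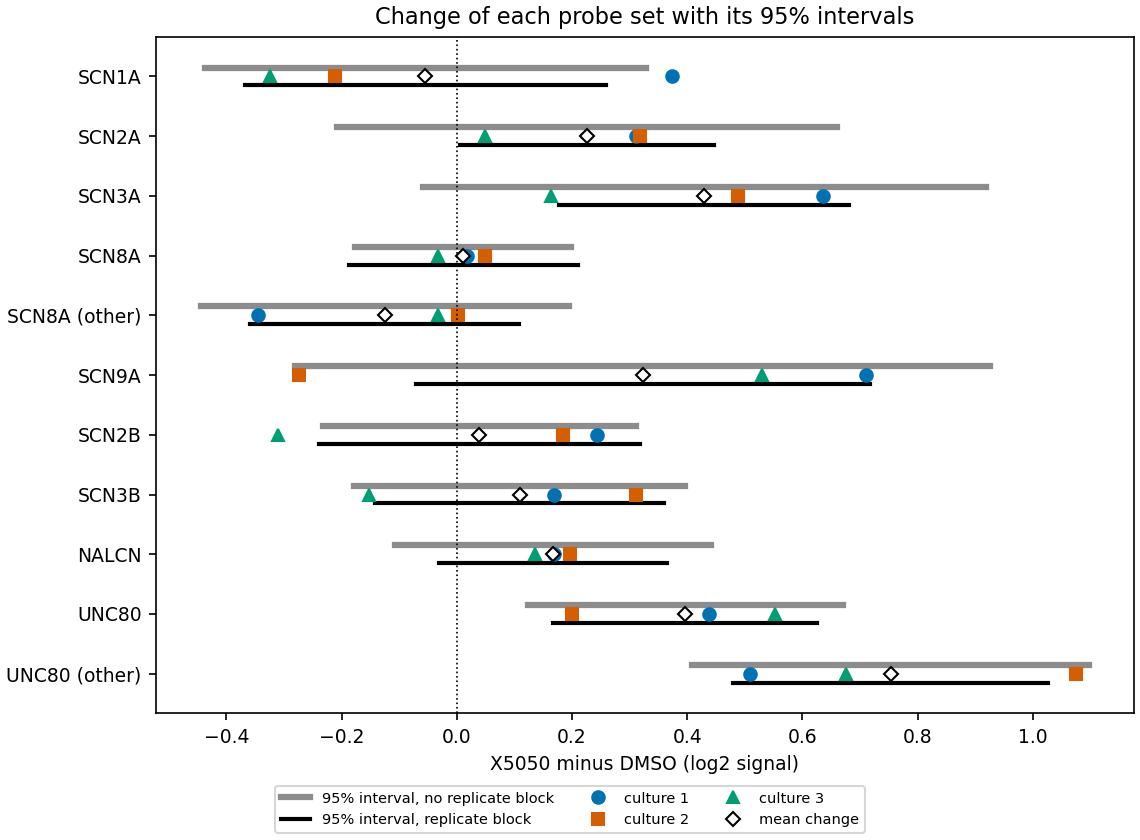
Change of each probe set (X5050 minus DMSO, log2 signal) by culture, with the mean and the 95% intervals of the limma fits without and with the replicate block. The interval of both UNC80 probe sets lies above 0 in both fits, and those of SCN3A and SCN2A do so in the fit with the block alone.

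The UNC80 promoter is shown because it alone among the members' windows held the letters of RE1. RefSeq windows of 300 bases (250 before to 50 after a gene's start, GRCh38.p14) matched 7 of the 9 genes by symbol, with 9 windows. They were searched on both strands for the left arm of RE1, TTCAGCACC, and for its right arm, GGACAG or the longer GGACAGCG that contains it. These letters and the largest spacing allowed were kept after the members' windows had been searched with shorter and longer forms of both arms, with a mismatch score against the whole element and with common promoter motifs, so the choice favours the windows it was made on and the shares below are a description. The right arm at its full length, 2 letters longer, was in 0 of the members' windows. The stretch below is chr2:209771682-209771831 on the plus strand, the 150 bases that end just before the start of UNC80, with the reverse complements of GGACAGCG and then TTCAGCACC in capitals.

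UNC80: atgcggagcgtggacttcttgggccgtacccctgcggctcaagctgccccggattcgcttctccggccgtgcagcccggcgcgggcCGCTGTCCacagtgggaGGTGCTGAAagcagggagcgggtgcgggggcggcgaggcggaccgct

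Read on the minus strand the arms stand in the RE1 order, left then right, with 9 bases between, and TTCAGCACC to GGACAG covers positions -62 to -39 relative to the start. In the classical element 2 bases separate them, and elements with wider spacing are also known. Of 35116 windows of this length 0.376% held the left arm, 20.5% the right arm and 1.63% its longer form. Both in this order with at most 30 bases between stood in 15 windows (0.0427%), and 0.0171% had the longer right arm. For comparison, the elements of the glutamate receptor gene GRIA2 and the synapsin gene SYN1, with the classical spacing, and of the vesicle-priming gene UNC13A, with 8 bases between, are given beside that of UNC80, 5′ to 3′ on the strand that holds them (UNC80 chr2:209771770-209771793, minus; GRIA2 chr4:157220392-157220408, minus; SYN1 chrX:47620074-47620090, minus; UNC13A chr19:17688340-17688362, plus), with the arms in capitals.

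UNC80: TTCAGCACCtcccactgtGGACAG

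GRIA2: TTCAGCACCgaGGACAG

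SYN1: TTCAGCACCgcGGACAG

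UNC13A: TTCAGCACCgggggcgcGGACAG

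The other 8 member windows, of SCN1A, SCN2A, SCN8A, SCN9A, SCN2B and NALCN, held neither arm in these letters. A match describes the letters of a window and does not show binding, and REST elements outside these windows were not searched. The windows differed widely in base composition, from 31.7% G and C for one of the SCN2A windows to 84.0% for SCN8A, with 72.3% for UNC80 and a median of 58.7% over all windows.

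**Figure D3:**
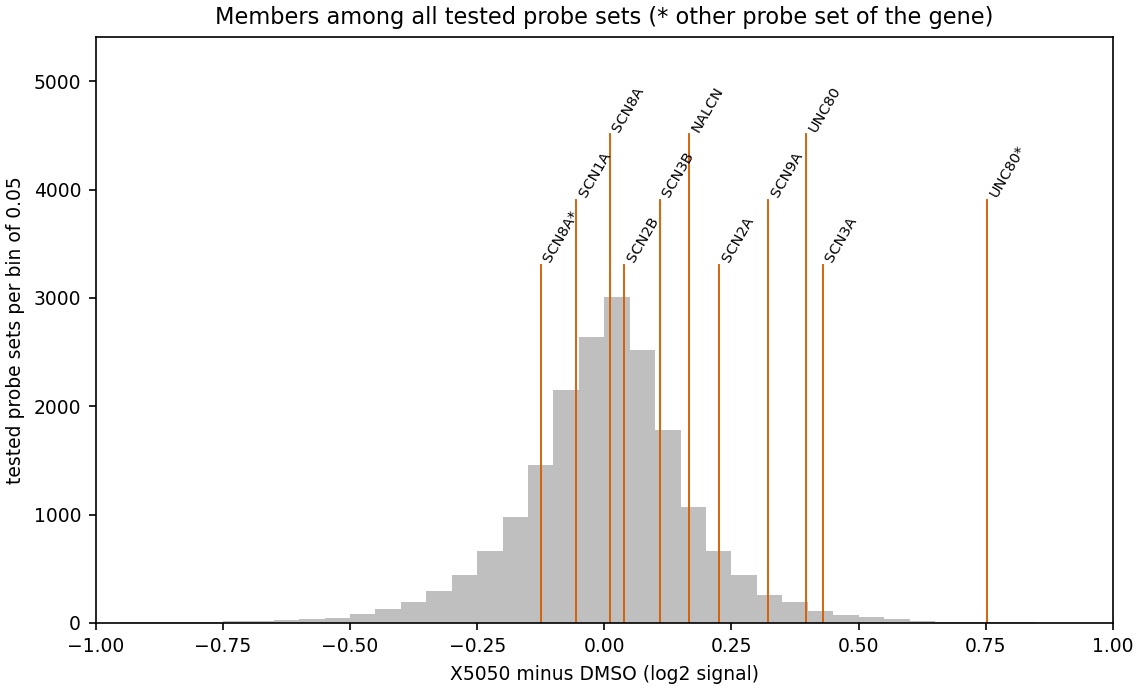
Changes of all 19460 tested probe sets (grey, bins of 0.05 log2 units between -1 and 1, with 21 probe sets beyond) and of the 11 member probe sets (lines). The other UNC80 probe set stands farthest right at 0.75, and SCN1A, both SCN8A probe sets and SCN2B stand in the bulk.

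The rest of the family gave no call either. Of 10 further subunit genes 7 were measured, with a median change of 0.069. Among these, 6 were above 0 (52.7% of all tested probe sets were) and 0 passed in either fit. The 3 with the smallest paired p were NALF2 (0.17, SE 0.095), an accessory subunit of the leak channel, SCN4B (0.18, SE 0.11), a beta subunit, and UNC79 (0.13, SE 0.17), the partner that UNC80 binds. UNC79 changed by 0.33, 0.089 and -0.038 in cultures 1, 2 and 3, where UNC80 changed by 0.44, 0.20 and 0.55. The mean DMSO signals of the 7 ran from 3.46 (SCN7A) to 6.40 (NALF2).

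Most genes of proteins that anchor, bind or clear sodium channels had a change above 0, but none passed the test. Of 19 listed partners 18 were measured, and 0 passed in either limma fit. Their changes had a median of 0.20, and 14 lay above 0 (52.7% of all tested probe sets did). X5050 was higher in all 3 cultures for 11 of the 18, lower in all 3 for 0, beside 18.0% and 17.5% of all tested probe sets. Its arrays stood wholly above the DMSO arrays for 2 of the 18, FGF11 and PTPRZ1, beside 7.51% of all tested probe sets. The 3 with the smallest paired p were ANK3, ANK2 and the axonal adhesion gene CNTN1. ANK3, which encodes ankyrin G, the anchor of sodium channels at the axon initial segment, stood at 0.49 (paired SE 0.093, paired adjusted p = 0.0709 by limma). ANK2, which encodes ankyrin B, stood at 0.37 (paired SE 0.092, paired adjusted p = 0.120 by limma). CNTN1 stood at 0.39 (paired SE 0.10, paired adjusted p = 0.135 by limma). NEDD4L, a ubiquitin ligase that removes sodium channels from the membrane, stood at 0.31 (SE 0.17). The list holds 4 fibroblast growth factor homologous factors, which bind the channels and modulate their gating. FGF14 stood at 0.34 (SE 0.29), FGF11 at 0.24 (SE 0.090) and FGF13 at 0.14 (SE 0.095), each higher in all 3 cultures. FGF12 stood at -0.10 (SE 0.22), with -0.58 in culture 1 and 0.13 in both others. Also below 0 lay TNC (-0.21, SE 0.68), TNR (-0.048, SE 0.12) and PRRT2 (-0.023, SE 0.15). The partners of at least 100 kb numbered 14. Of these 85.7% lay above 0 and 64.3% were higher in all 3 cultures, beside 65.6% and 32.5% of all genes of that span. Apart from ANK3, ANK2 and CNTN1, the partners named here were chosen after their values were seen. The list itself was chosen with earlier results of these data known.

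**Figure D4:**
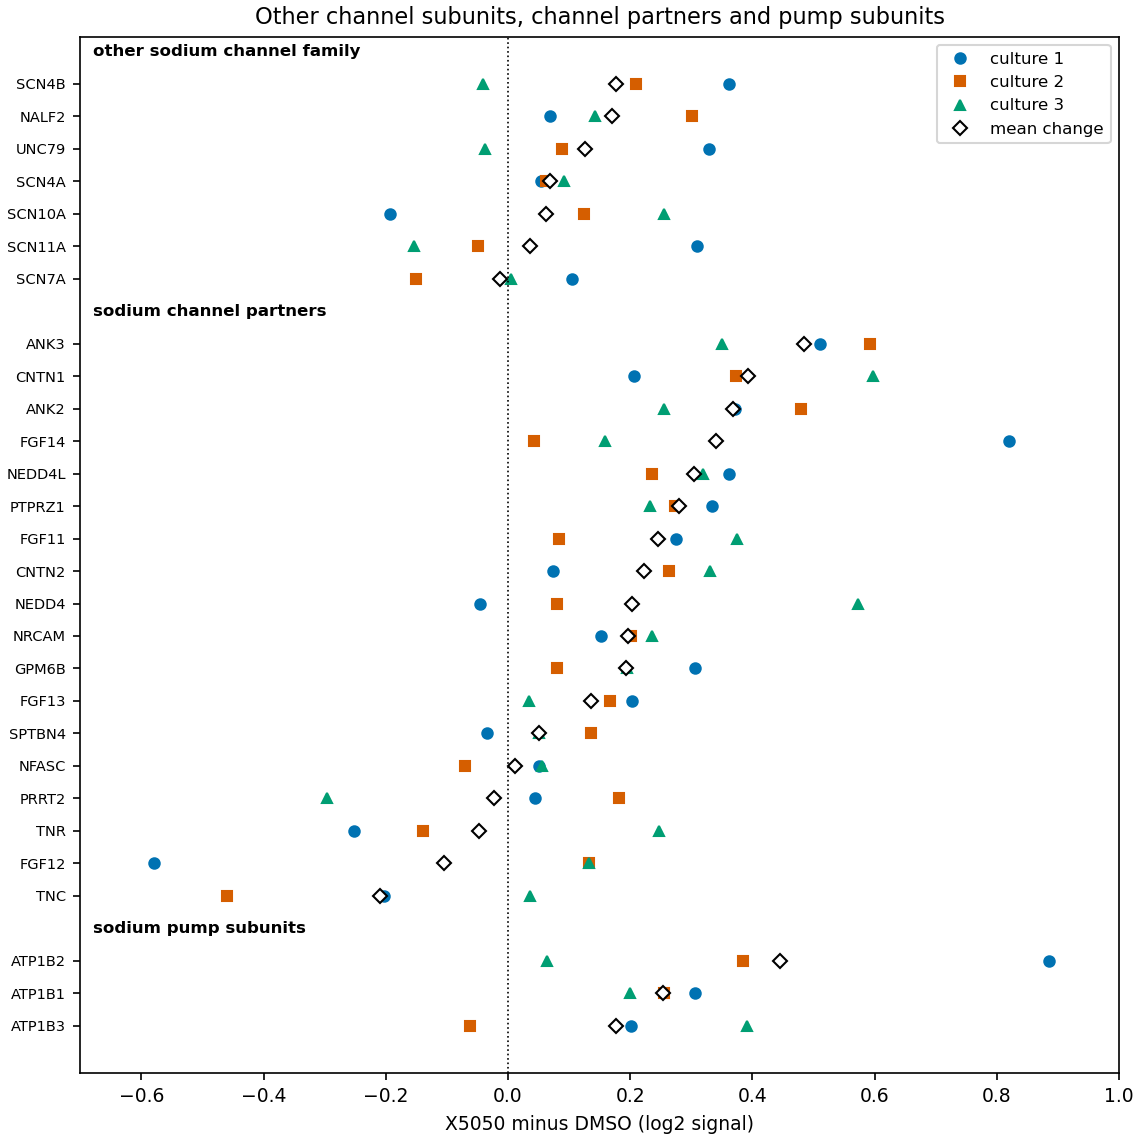
Change by culture and mean change (X5050 minus DMSO, log2 signal) of other channel subunits, channel partners and sodium pump subunits. ANK3, ANK2 and CNTN1 lie above 0 in all 3 cultures, and the mean changes of the other family members run from -0.013 (SCN7A) to 0.18 (SCN4B).

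Array profiles were compared by the root mean square difference between genes' log2 signals over the 6 arrays, each gene centred on its own mean. The genes nearest to SCN3A among 17105 were the spliceosome gene SNRPA1 (0.052), ANK3 (0.081), ZNF704 (0.086), CEP126 (0.096) and ISYNA1 (0.10), where the median gene lay at 0.37. With SCN3A they shared the low DMSO array of culture 1 and the high X5050 array of culture 2, which follows from being picked on these arrays. Nearest to the main UNC80 probe set were the ceramide synthase gene CERS4 (0.022), ST8SIA4 (0.051), KLHL41 (0.058), the tetraspanin gene TSPAN7 (0.063) and DMGDH (0.066), with 0.26 for the median gene. Nearest to the other UNC80 probe set were FLRT1 (0.12), NIM1K (0.14), GPCPD1 (0.17), EFCAB7 (0.18) and CLVS2 (0.19), with 0.43 for the median gene. The lists of the UNC80 probe sets share no gene. The likeness rests on the 6 arrays that also picked the genes, and is a description. SNRPA1 (4.50), KLHL41 (4.38) and DMGDH (4.15) were dim, with mean DMSO signals below the lower quartile of the tested probe sets.

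**Figure D5:**
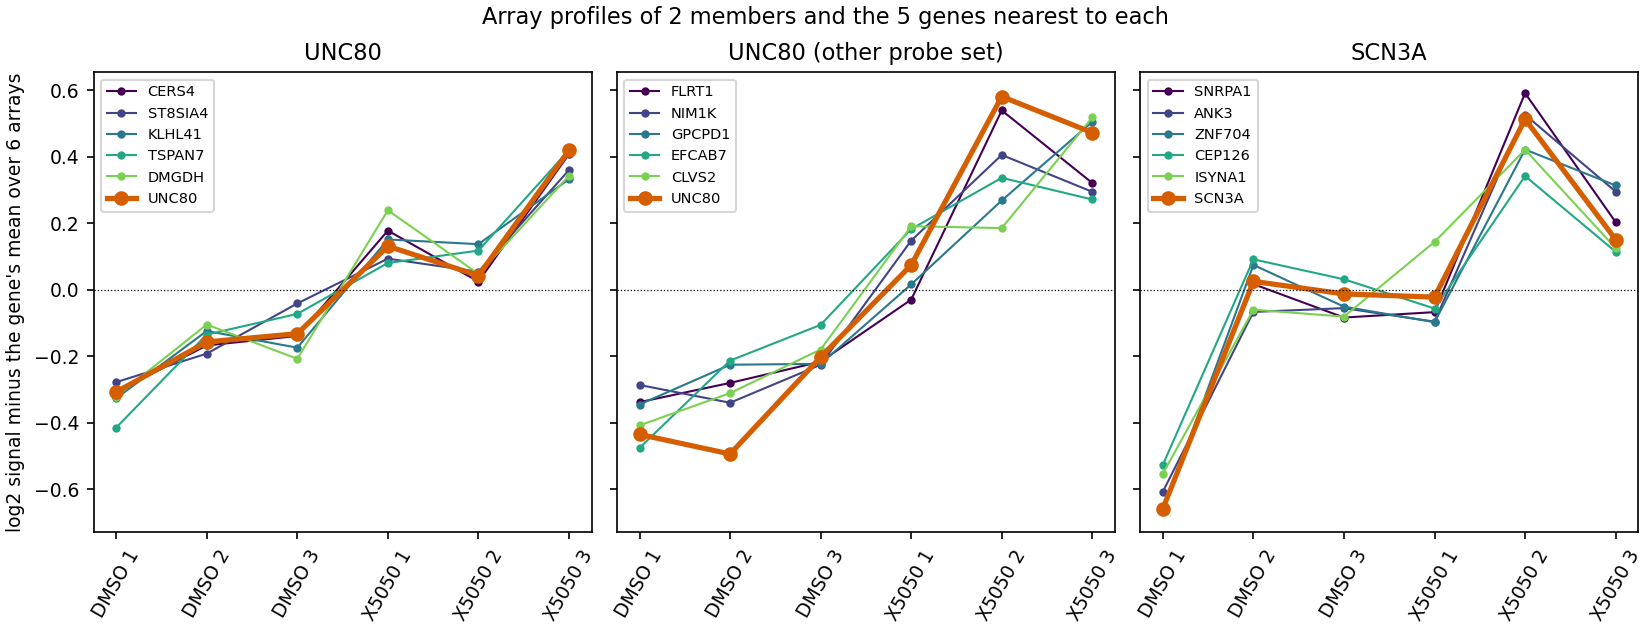
Log2 signal minus the gene's own mean on the 6 arrays, for each UNC80 probe set and SCN3A (thick lines) and the 5 genes nearest to each (lines join the points of a gene and stand for no order of the arrays). SCN3A and ANK3 share their lowest array, DMSO replicate 1, and their highest, X5050 replicate 2.

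In bulk samples more RNA per cell and more cells that express a gene cannot be told apart. Of 12 neuron markers 11 were measured, 4 above 0 (52.7% of all tested probe sets were) and 7 below, with a median change of -0.078. For 2 of the 11 X5050 was higher in all 3 cultures, beside 18.0% of all tested probe sets. It was lower in all 3 for 2, DCX (-0.10) and INA (-0.17), beside 17.5%. SYT1, which encodes a calcium sensor of synaptic vesicles, stood at 0.48 (paired SE 0.093, paired adjusted p = 0.0733 by limma), with X5050 arrays wholly above the DMSO arrays. The list's mean signal per array ranged from 9.59 to 9.77 with DMSO and from 9.59 to 9.71 with X5050. Of 5 astrocyte markers 4 lay above 0 (52.7% of all tested probe sets did), and 1 was higher in all 3 cultures (18.0% of all). Their median was 0.15, with medians of 0.30, 0.15 and -0.040 in cultures 1, 2 and 3. Those of the members were 0.31, 0.20 and 0.049. The part of the astrocyte markers in the members' changes was not tested. Of 5 oligodendrocyte lineage markers 4 also lay above 0, with a median of 0.036. Among the pluripotent markers 1 of 2 measured did, and among the peripheral neuron markers 0 of 3. The 10 neural stem cell markers were all measured, with SOX2 at 10.9 and PAX6 at 10.8 with DMSO and a median change of -0.14. Below 0 lay 7 of the 10 (47.3% of all tested probe sets did), while SOX2 (0.15), VIM (0.063) and SOX1 (0.042) lay above. The list's mean signal per array was 9.28 to 9.32 with DMSO, and how the lists compare in RNA or cells was not tested. Mean DMSO signals ran from 6.43 (SOX1) to 12.1 (FABP7), and among the neuron markers from 5.97 (RBFOX3) to 12.2 (STMN2). NES stood at -0.42 (SE 0.10) and MSI1 at -0.23 (SE 0.10), and for these 2 of the 10 the X5050 arrays lay wholly below the DMSO arrays, as for 7.41% of all tested probe sets. Of 9 mesenchymal markers, those of another cell type, 8 lay below 0 (47.3% of all tested probe sets did), with a median of -0.33 and a mean signal of 7.19 to 8.67 with DMSO and 6.83 to 8.11 with X5050. X5050 was lower in all 3 cultures for 6 of the 9 (17.5% of all tested probe sets), among them TAGLN (-0.89), POSTN (-0.87) and PRRX1 (-0.35), and higher in all 3 for 0. None passed in the fit without the block. In the paired fit 1 of the 9, the matrix proteoglycan gene LUM, fell (-1.09, limma adjusted p = 0.0386), and 0.308% of all tested probe sets were called lower. That call was lost without culture 3 (adjusted p = 0.0763) and after quantile normalization (0.0539). The markers' part in the members' changes was not tested. REST mRNA changed by -0.057 (SE 0.096).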

How the data were processed

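Per the labels, 100 ng RNA was labelled for each of 6 Affymetrix arrays, and the deposited table gives a log2 signal for each probe set. RMA and Partek are named in the submitters' processing notes, without versions, settings or the annotation's build, which are not stated in the sources at hand. Array medians lay between 5.68 and 5.75. The table held 33297 probe sets; 19460 with 1 gene symbol were tested, and 1754 with several were not. All 9 members matched a RefSeq gene. The groups were compared by limma 3.58.1 (R 4.3.3; lmFit, eBayes, two-sided), Benjamini-Hochberg adjusted over all 19460, with treatment as the only term and, as an alternative, the replicate number as a block. Deviations from group means correlated at 0.365, 0.297 and 0.255 for same-numbered arrays and from -0.236 to -0.0520 for others, and the numbers were therefore read as pairs. An exact permutation test of 3 against 3 arrays cannot go below 0.1. Members and gene lists were chosen with earlier results of these data known. The rule for named genes took all members, from each other list the genes past the threshold in either fit and the 3 with the smallest paired p, and the 5 nearest profiles for UNC80 and SCN3A. It was printed in full for the sodium-related lists and in part for the cell type markers, and other genes are named beside it: those of the promoter comparison, partners, SCN7A, and markers, which were picked with their values in view. Both designs were tested on simulated data. Plots used Python 3.11.15 and matplotlib 3.10.9.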

Additional observations from a re-analysis of the deposited data

How the results depend on the processing

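Without the replicate block 0 probe sets passed in limma, and 97 passed with it. With 1 array left out the count ranged from 0 to 1 (the 1 without DMSO replicate 1), and in the paired fit it was 346, 81 and 0 without cultures 1, 2 and 3. The count of the 9 member genes past the threshold was 0 under every alternative run, as were those of the other family genes and the partners, and between 6 and 9 members lay above 0. The block moved the other UNC80 probe set alone across the threshold among the 11 member probe sets. Directions of SCN2A, SCN3A, SCN9A, SCN3B, NALCN and UNC80 held under every alternative run for them. With 1 array left out, SCN1A ranged from -0.25 to 0.054, SCN8A from -0.027 to 0.034 and SCN2B from -0.025 to 0.13. In the paired fit SCN1A was 0.024 without culture 2 and 0.080 without culture 3, SCN8A was -0.0078 without culture 2, and SCN2B was -0.063 and -0.034 without cultures 1 and 2. SCN8A was -0.057 with the median of its probe sets and -0.13 with its other probe set, in either fit. The cause of these turns was not tested. The alternatives for the other UNC80 probe set and for LUM were chosen after seeing the data. With 3 arrays per group, a change near its SE in a fit cannot be told from 0 by that fit. NALCN was below the lower quartile of the tested probe sets on every array, and SCN9A was on 2 of the 6.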

Other observations

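Sodium pump subunits, which restore the gradient that sodium channels use, were measured for 3 of 6 listed genes. All 3 were above 0 (52.7% of all tested probe sets were), and 0 passed in limma in either fit. ATP1B2 stood at 0.44 (SE 0.18) and ATP1B1 at 0.25 (SE 0.087), both with X5050 arrays wholly above the DMSO arrays (7.51% of all tested probe sets), and ATP1B3 at 0.18 (SE 0.11). ATP1B2 changed by 0.88, 0.39 and 0.065 in cultures 1, 2 and 3.

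The 15 promoter windows with both RE1 arms in order belong to 14 gene symbols, of which 12 were measured. Apart from UNC80, 7 of the other 11 lay above 0 (52.7% of all tested probe sets did). The median change of the 11 was 0.037, with a range from -0.14 to 0.26. Below 0 lay GRM2 (-0.14, SE 0.22), TPH2 (-0.059, SE 0.082), KCNH6 (-0.036, SE 0.086) and LHX3 (-0.011, SE 0.10), and TPH2 was higher in 0 cultures. TPH2 (3.32), KCNH6 (4.65) and DRD3 (3.93, change 0.032) were dim, with mean DMSO signals below the lower quartile of the tested probe sets. The highest were GRIA2 (0.26, SE 0.22), UNC13A (0.22, SE 0.13), the zinc transporter gene SLC39A3 (0.18, SE 0.10) and the granin gene SCG3 (0.17, SE 0.16). SCG3 alone among the 11 was higher in all 3 cultures, as were 18.0% of all tested probe sets. The classical spacing of 2 bases was held by 5 windows, and 9 bases by that of UNC80.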
